A study of Mus musculus with 8 samples.

Results

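Expression of 31 genes of the ATF4 pathway and the unfolded protein response was compared in primary mouse hepatocytes of 2 genotypes. The genes were chosen by name for their known role, with earlier results of these data known. Of the 31, 30 had an array row that names exactly 1 gene, among 22180 genes with such a row. Pdia4, an oxidoreductase of the endoplasmic reticulum (ER), shares its row with a microRNA gene and was not analysed here. Edem1 had more than 1 row, and the row with the highest mean was kept. All 30 lay above the filter on dim genes, which asked for a mean above 3.32 on the log2 scale and left 15380 genes for the test.

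The groups were p16-/- (knockout) hepatocytes and p16+/+ (wild type) hepatocytes of littermate mice, with 4 arrays each. Hepatocytes are the parenchymal cells of the liver and make most plasma proteins; p16 is the cell cycle inhibitor encoded by Cdkn2a. In both groups the cells were released with collagenase, attached for 16 h in medium with 10% serum, 100 nM insulin and 25 nM dexamethasone, then held for 8 h at 1 mM glucose with 0.1% albumin, and RNA was taken at 24 h. The sample titles call the arrays biological replicates. The sources used here give no strain, age, deleted part of the gene, or word on whether each sample is its own animal. The p-values cover only the spread seen between arrays, which may not be the spread between animals.

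The ER folds secreted proteins, and 3 sensors in its membrane report when unfolded protein builds up. PERK phosphorylates the translation factor eIF2, which slows protein synthesis while the mRNA of ATF4 is translated more; ATF4 then turns on genes for amino acid supply, for CHOP and for feedback on eIF2. IRE1 splices the mRNA of XBP1 into the form that encodes the active factor, and ATF6 is cut in the Golgi to release its own factor; XBP1 and ATF6 together induce chaperones, folding enzymes and the machinery that sends misfolded proteins to the proteasome. Amino acid shortage and other stresses reach eIF2 through other kinases, so ATF4 can act without the ER. An array reads mRNA levels, not eIF2 phosphorylation, ATF6 cleavage or, with 1 row for Xbp1, its splicing.

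The members moved in both directions within each branch. Of the 30 members, 6 were higher in the knockout (Eif2ak3, Herpud1, Chac1, Dnajb9, Derl3 and Xbp1), 5 were lower (Ddit3, Trib3, Hspa5, Ern1 and Dnajc3) and 19 did not pass the test (limma, adjusted p under 0.05 over all genes tested). That is 36.7% of the members, beside 13.8% of all genes tested, with 7.02% higher and 6.76% lower. This contrast is a description without a test, since the members were chosen with earlier results of these data known. The change reached 1.5-fold for 4 members. Groups did not overlap for 15 members, which is the case for 20.2% of all genes tested. The median change was -0.02 over the members and -0.02 over all genes tested (knockout minus wild type, log2 scale).

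**Figure D1:**
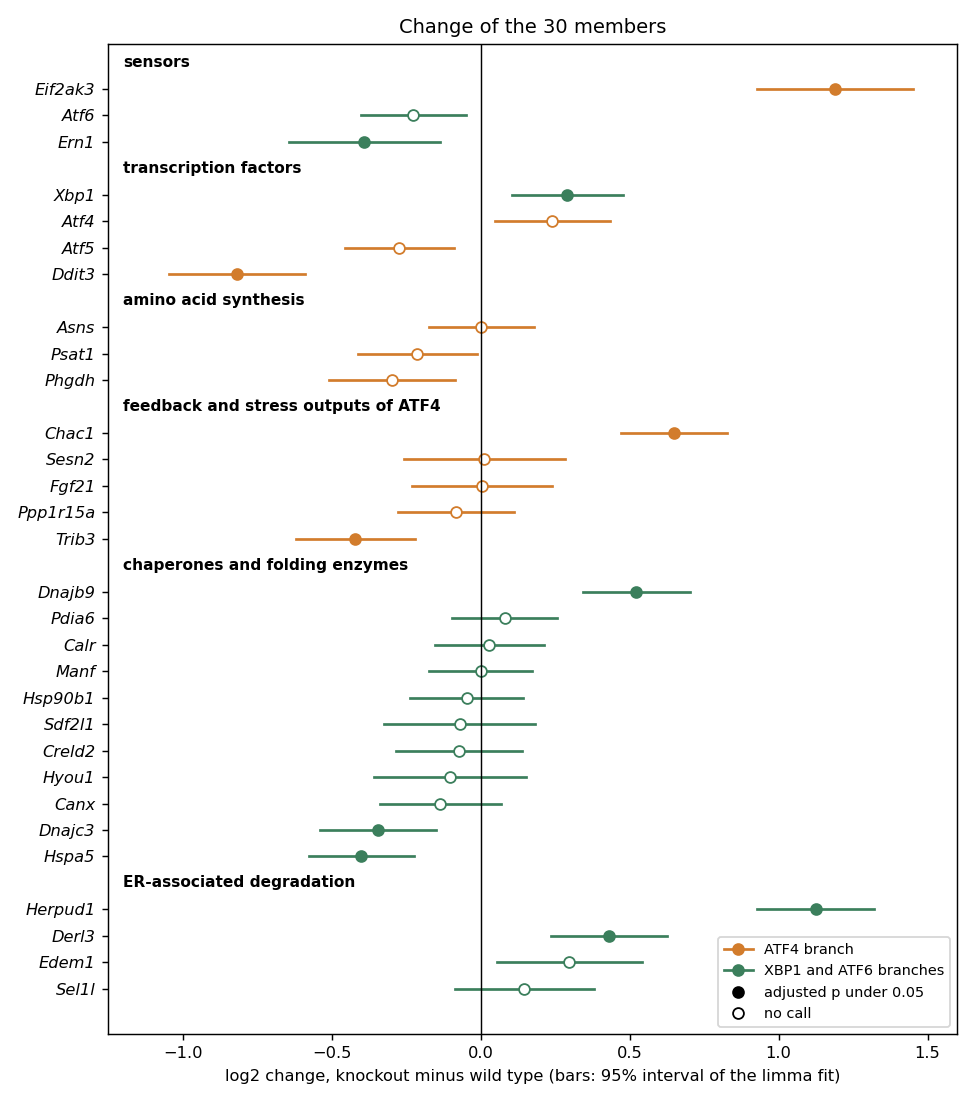
Change of each of the 30 members on the log2 scale, knockout minus wild type, in blocks by role; points are estimates, bars 95% intervals of the limma fit, filled points passed an adjusted p of 0.05, and colour gives the branch. Eif2ak3 (1.19) and Herpud1 (1.12) lie farthest to the right and Ddit3 (-0.82) farthest to the left.

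Cdkn2a, the targeted gene, was at 4.28, 4.66, 4.27 and 4.91 in arrays labelled knockout and at 4.16, 4.79, 4.48 and 4.68 in arrays labelled wild type, with overlapping groups (95% interval of the difference -0.37 to 0.38). It has 1 row, the locus also encodes ARF, and the deleted part is not known here, so this row does not check the genotype and the groups rest on the labels. Alb stood at 13.57 ± 0.01 in knockout and 13.54 ± 0.03 in wild type arrays (log2, SD, n = 4 each) and both groups carried the other secreted hepatocyte proteins, of which 10 of 25 were higher in the knockout and none lower, with a list mean higher by 0.22. Of 16 markers of mature hepatocytes 15 were higher in the knockout, with a list mean of 0.57 to 0.80 in knockout and -0.83 to -0.57 in wild type arrays around each gene's own mean. Markers of other liver cells were lower: 17 of 18 endothelial markers (list mean -0.59 to -0.43 in knockout, 0.45 to 0.57 in wild type arrays), 12 of 15 macrophage markers with 1 higher (-0.42 to -0.36 against 0.34 to 0.48), and 6 of 14 stellate cell and fibroblast markers with 1 higher (-0.33 to -0.19 against 0.22 to 0.30). Of 4 cholangiocyte, 3 B and plasma cell, 4 T and NK cell markers and 1 erythroid marker that were tested, none was called. Among defining markers, endothelial Cdh5 stood at 6.21 in knockout and 8.24 in wild type arrays and fibroblast Dcn at 4.70 and 6.83. The macrophage gene Clec4f stood at 3.82 and 3.96 without a call and the plasma cell gene Jchain was below the filter at 2.00 and 1.83. In bulk RNA, fewer cells of a type and less RNA per cell cannot be told apart, and the part that these shifts play in the members' values was not tested. Knockout replicate 4 stood apart on the second principal component, at -25.2 against -8.91 to 14.6 on the other arrays, and it was the lowest knockout array for 16 of the 30 members.

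Among the sensors, the mRNA of PERK was higher in the knockout and that of IRE1 was lower. Eif2ak3, which encodes PERK, was at 7.69, 7.62, 7.59 and 7.39 in knockout hepatocytes and at 6.29, 6.13, 6.54 and 6.58 in wild type hepatocytes (log2 expression, replicates 1 to 4). All knockout arrays lay above all wild type arrays, with a gap wider than the spread within either group. The rise was 2.28-fold (log2 change 1.19, SE 0.12, limma adjusted p = 6.74e-05), which places Eif2ak3 at the 99.3rd percentile of change among all genes tested. Ern1, which encodes IRE1, was at 7.67, 7.79, 7.70 and 7.30 in knockout and 7.93, 8.05, 8.13 and 7.92 in wild type arrays. The groups did not overlap, and knockout replicate 4 was the lowest array by a wide margin. Ern1 fell by 0.39 (SE 0.12, limma adjusted p = 0.0458), a call that ended when any array but knockout replicate 2 was left out (adjusted p = 0.0600 to 0.117). Atf6 did not pass the test: it was at 8.93, 8.97, 8.87 and 8.87 in knockout and 9.20, 9.14, 9.08 and 9.12 in wild type arrays, without overlap, for a difference of -0.23 (SE 0.08, limma adjusted p = 0.0912). The 3 sensors therefore had 1 rise, 1 fall and 1 difference below zero without a call.

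**Figure D2:**
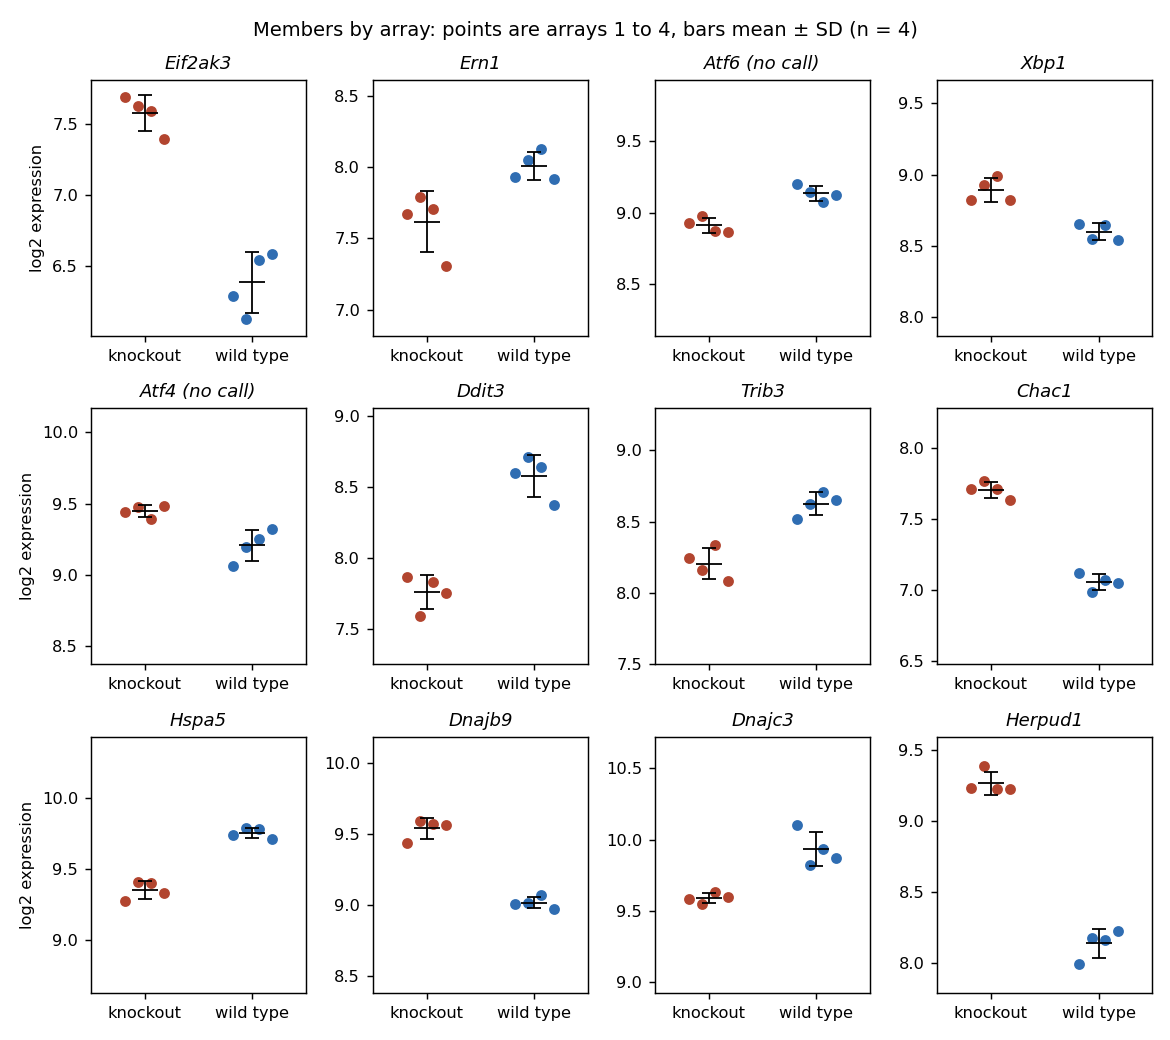
Log2 expression of 12 members on each array, knockout left and wild type right; points are replicates 1 to 4 from left to right, bars are mean ± SD (n = 4), and all panels span a range of equal width. All 12 members have groups that do not overlap, with Atf4 and Atf6 not called. The 12 were picked by hand and are among the 15 of 30 members without overlap. Of all genes tested, 20.2% have groups that do not overlap.

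The transcription factors split in the same way, and Ddit3 carried the largest fall of any member. Ddit3 encodes CHOP, the factor of the ATF4 branch that is tied to cell death under lasting stress. It was at 7.86, 7.59, 7.83 and 7.75 in knockout and at 8.59, 8.71, 8.64 and 8.37 in wild type arrays, so every knockout array lay at least 0.51 below every wild type array. Ddit3 fell 1.76-fold (log2 change -0.82, SE 0.10, limma adjusted p = 3.75e-04), at the 1.15th percentile of change. Atf4 itself was at 9.44, 9.48, 9.39 and 9.48 in knockout and at 9.06, 9.20, 9.25 and 9.32 in wild type arrays. Its groups did not overlap, but the difference of 0.24 (SE 0.09, 95% interval 0.05 to 0.43) did not pass the test (limma adjusted p = 0.0967), and it has the opposite sign to the change of Ddit3. Atf5, a related factor that is also translated more when eIF2 is phosphorylated, had a difference of -0.27 (SE 0.08, limma adjusted p = 0.0532), with 9.23 to 9.38 in knockout and 9.52 to 9.65 in wild type arrays. With an intensity trend in the variance model all of Atf4, Atf5 and Atf6 were called (limma adjusted p = 0.0249, 0.00837 and 0.0241).

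Xbp1, the substrate of IRE1 and the factor behind many ER genes, was at 8.82, 8.93, 8.99 and 8.82 in knockout and at 8.65, 8.55, 8.65 and 8.54 in wild type arrays. The groups did not overlap and lay close together, at a lowest knockout value of 8.82 against a highest wild type value of 8.65. Xbp1 rose by 0.29 (SE 0.08, limma adjusted p = 0.0430). The call ended without any array other than knockout replicate 4 (adjusted p = 0.0695 to 0.107) and with the replicate number as a block (adjusted p = 0.0611). So the mRNA of IRE1 was lower and that of its substrate higher in the knockout, both by less than 1.5-fold and both near the threshold.

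Outputs of ATF4 did not move as a group. Chac1 encodes an enzyme that breaks down glutathione and is a known target of ATF4. It was at 7.71, 7.77, 7.71 and 7.63 in knockout and 7.12, 6.99, 7.07 and 7.05 in wild type arrays. Chac1 rose 1.57-fold (log2 change 0.65, SE 0.08, limma adjusted p = 3.46e-04), and no array of one group came near the other. Trib3, a pseudokinase that is induced by ATF4 and CHOP and restrains both as well as AKT, was at 8.24, 8.16, 8.34 and 8.08 in knockout and at 8.52, 8.62, 8.71 and 8.65 in wild type arrays. Trib3 fell by 0.42 (SE 0.09, limma adjusted p = 0.0102), again without overlap. Chac1 and Trib3 thus changed in opposite directions on the same arrays.

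The other outputs of ATF4 had overlapping groups and small differences. Ppp1r15a, or GADD34, the phosphatase subunit that restores translation by dephosphorylating eIF2, averaged 6.86 ± 0.12 in knockout and 6.94 ± 0.05 in wild type hepatocytes (SD, n = 4 each), with a 95% interval of the difference of -0.28 to 0.11. Fgf21, a hormone that the liver releases in fasting and amino acid shortage, averaged 5.52 ± 0.13 in knockout and 5.51 ± 0.16 in wild type hepatocytes (interval -0.23 to 0.24). Sesn2, a stress protein that inhibits mTORC1, averaged 7.99 ± 0.25 in knockout and 7.98 ± 0.07 in wild type hepatocytes (interval -0.26 to 0.28); its knockout values were 8.14, 8.04, 8.15 and 7.61, with replicate 4 far below the others. Sesn2 is also the only placed member on the chromosome of Cdkn2a, chromosome 4, where it lies 43.2 Mb away (GRCm38.p6).

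None of the 3 enzymes of amino acid synthesis was called. Asns, which makes asparagine and is the textbook target of ATF4, was the most even of them, at 9.40 to 9.56 in knockout and 9.46 to 9.51 in wild type arrays, with a 95% interval of the difference of -0.17 to 0.18. Phgdh, the entry enzyme of serine synthesis, was at 6.57 to 6.87 in knockout and 7.02 to 7.17 in wild type arrays, a difference of -0.30 (SE 0.10, limma adjusted p = 0.0634). It was called lower in 4 of 19 alternative fits, among them an intensity trend and array weights (limma adjusted p = 0.0331 to 0.0404). Psat1, the next enzyme of that path, was at 7.83 to 8.08 in knockout and 8.08 to 8.26 in wild type arrays, a difference of -0.21 (SE 0.09, limma adjusted p = 0.157). The groups did not overlap for Phgdh and overlapped for Asns and Psat1.

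Of the 11 chaperones and folding enzymes measured, 1 was higher, 2 were lower and 8 were not called. That is 27.3% called, beside 13.8% of all genes tested. Hspa5 encodes BiP, the main chaperone of the ER lumen, which holds the sensors inactive and is the usual readout of the unfolded protein response. It was at 9.27, 9.41, 9.40 and 9.33 in knockout and at 9.74, 9.79, 9.78 and 9.71 in wild type arrays, with spreads of 0.06 and 0.03 (SD, n = 4 each). Hspa5 fell by 0.40 (SE 0.08, 1.32-fold, limma adjusted p = 0.00666), and the groups were well separated. Dnajc3, or p58IPK, a co-chaperone of BiP that also inhibits PERK, was at 9.58, 9.54, 9.63 and 9.60 in knockout and at 10.10, 9.82, 9.94 and 9.87 in wild type arrays. Dnajc3 fell by 0.34 (SE 0.09, limma adjusted p = 0.0252). Its call ended without knockout replicate 1 or 2 or wild type replicate 1 or 3 (adjusted p = 0.0641, 0.0727, 0.0794 and 0.0592), and wild type replicate 1 was the highest array.

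Dnajb9, or ERdj4, another co-chaperone of BiP and an XBP1 target that keeps IRE1 inactive, went the other way. It was at 9.43, 9.59, 9.57 and 9.56 in knockout and at 9.01, 9.02, 9.07 and 8.97 in wild type arrays. Dnajb9 rose 1.44-fold (log2 change 0.52, SE 0.08, limma adjusted p = 0.00150). Dnajc3 and Dnajb9 therefore changed in opposite directions, without overlap of the groups for either.

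The remaining 8 folding genes had differences between -0.13 and 0.08, and their groups overlapped. Hsp90b1, the ER form of HSP90, averaged 10.54 ± 0.04 in knockout and 10.59 ± 0.10 in wild type hepatocytes (SD, n = 4 each; 95% interval of the difference -0.24 to 0.14). Calr and Canx encode calreticulin and calnexin, the lectins that retain immature glycoproteins; Calr averaged 10.65 ± 0.05 in knockout and 10.62 ± 0.08 in wild type hepatocytes (interval -0.15 to 0.21), and Canx 10.85 ± 0.09 in knockout and 10.99 ± 0.11 in wild type hepatocytes (interval -0.34 to 0.07). The disulfide isomerase Pdia6 differed by 0.08 (interval -0.09 to 0.26), the large chaperone Hyou1, which exchanges the nucleotide of BiP, by -0.10 (interval -0.36 to 0.15), and the BiP cofactor Sdf2l1 by -0.07 (interval -0.32 to 0.18). Creld2 differed by -0.07 (interval -0.29 to 0.14). Manf, a secreted ER stress protein, was the most even member, at 5.34 to 5.45 in knockout and 5.38 to 5.43 in wild type arrays (interval -0.17 to 0.17). Knockout replicate 4 was low for Sdf2l1, at 5.97 beside 6.28 to 6.31 on the other knockout arrays, and wild type replicate 2 was low for Hyou1 and Canx.

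All 4 genes of ER-associated degradation, which takes misfolded proteins back to the cytosol, had positive differences in the rows kept, and 2 passed the test. That is 50% called, beside 13.8% of all genes tested. The other row of Edem1 had a negative difference. Of all 15380 genes tested, 6954 had a positive difference. Herpud1, or HERP, a membrane protein that organises the retrotranslocation complex, was at 9.23, 9.39, 9.22 and 9.22 in knockout and at 8.00, 8.18, 8.16 and 8.23 in wild type arrays. Its lowest knockout value lay 0.99 above its highest wild type value. Herpud1 rose 2.18-fold (log2 change 1.12, SE 0.09, limma adjusted p = 1.33e-05), at the 99.2nd percentile of change and with the smallest p of any member. Derl3, a derlin of the same complex, was dim, at 4.59, 4.54, 4.47 and 4.54 in knockout and 4.14, 4.15, 4.20 and 3.94 in wild type arrays. Derl3 rose by 0.43 (SE 0.09, limma adjusted p = 0.00753). RMA, the normalization behind these values, compresses differences of dim rows such as this one.

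Edem1, which extracts mannose-trimmed glycoproteins for degradation, was at 8.72, 8.68, 8.82 and 8.39 in knockout and at 8.41, 8.28, 8.49 and 8.23 in wild type arrays. Only knockout replicate 4 reached into the wild type range. The difference of 0.30 (SE 0.11) did not pass the test (limma adjusted p = 0.106), and without knockout replicate 4 it was 0.38 and passed (adjusted p = 0.0237). The other row of Edem1 gave a difference of -0.06 (adjusted p = 0.855), so the rows of this gene disagree. Sel1l, the adaptor of the ubiquitin ligase HRD1, was at 8.05 to 8.40 in knockout and 7.99 to 8.27 in wild type arrays, a difference of 0.15 (95% interval -0.09 to 0.38).

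**Figure D3:**
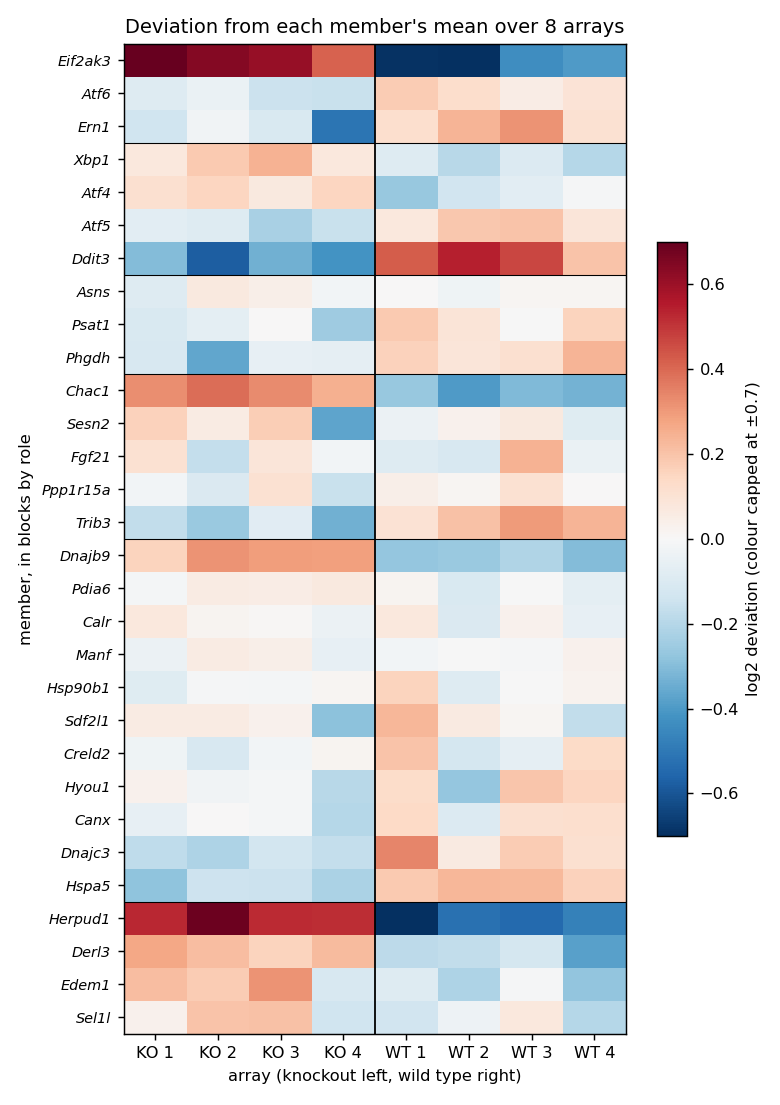
Deviation of each member from its own mean over the 8 arrays (log2 units, colour capped at 0.7 in either direction), with knockout arrays left and wild type arrays right and members in blocks by role. Eif2ak3, Chac1, Dnajb9, Herpud1 and Derl3 are red on all knockout arrays, Ddit3, Trib3 and Hspa5 blue, and most other folding genes are near white.

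The ATF4 branch, with PERK counted in it, and the joint XBP1 and ATF6 branches were alike in having calls both ways. In the ATF4 branch 2 of 12 members rose and 2 fell, or 33.3% beside 13.8% of all genes tested. The median change was -0.04, with a range of -0.82 to 1.19. In the XBP1 and ATF6 branches 4 of 18 rose and 3 fell, or 38.9%, with a median change of -0.02 and a range of -0.40 to 1.12. Averaged around each gene's mean, the ATF4 branch stood at -0.08 to 0.06 in knockout and -0.03 to 0.06 in wild type arrays, and the other branches at -0.05 to 0.08 in knockout and -0.08 to 0.02 in wild type arrays. The groups overlapped in both branch means, and knockout replicate 4 was the lowest knockout array in each. The medians differed by -0.02 between the branches, and by -0.06 to 0.01 over the alternatives tried. These branch values are descriptions without a test, since the members were chosen with results known.

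Promoters were examined for the elements through which these factors are known to act, in the window of 250 bases before to 50 bases after the transcription start given by RefSeq (GRCm38.p6) for 28 of the 31 listed genes. Atf6, Manf and Hyou1 were not matched. The ER stress element, to which ATF6 and XBP1 bind with NF-Y, was searched as CCAAT, then 9 bases, then CCACG, on both strands. It was found in 8 members, which is 28.6% of those with a window, and in 0.137% of all 27025 genes with a window. The members were chosen by name for their known role, so such shares, here and below, are descriptions without a test. The 8 were Hspa5, Hsp90b1 (with more than 1 match), Dnajc3, Pdia6, Creld2, Calr, Canx and Derl3, all from the XBP1 and ATF6 branches. Derl3 rose, Hspa5 and Dnajc3 fell, and the other 5 were not called, so members that share this element did not share a direction. Over all 19 tested genes with the element, members included, 2 rose and 2 fell, or 21.1% beside 13.8% of all genes tested. Their median change was -0.05.

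The stretches of the called members with a match upstream of the start are given here, 5′ to 3′ on the gene's strand. The match is in capitals, with the free bases between CCAAT and CCACG included. The search itself required CCAAT and CCACG, so the stretches do not show how alike the elements are. The free bases differ between Hspa5, Dnajc3 and Derl3, and their relation to the direction of change was not tested. The element lies 65 bases before the start of Hspa5, 105 before that of Dnajc3 and, on the opposite strand, 156 before that of Derl3.
Hspa5 (chr2:34771985-34772083, plus strand): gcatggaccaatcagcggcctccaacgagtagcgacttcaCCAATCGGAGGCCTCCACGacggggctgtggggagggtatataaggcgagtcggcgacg
Dnajc3 (chr14:118937787-118937885, plus strand): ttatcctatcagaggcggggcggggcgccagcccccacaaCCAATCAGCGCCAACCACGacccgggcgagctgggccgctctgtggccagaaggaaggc
Derl3 (chr10:75893202-75893300, plus strand): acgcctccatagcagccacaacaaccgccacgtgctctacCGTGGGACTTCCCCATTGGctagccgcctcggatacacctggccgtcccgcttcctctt

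The element bound by ATF4 with C/EBP partners was searched as TGATGNAA, on both strands. It was found in 5 members, 17.9% of those with a window, beside 4.51% of all genes with a window. They were Chac1 and Herpud1, which rose, Trib3, which fell and whose match lies 15 bases after the start, and Asns and Fgf21, which were not called. Over all 365 tested genes with this element, members included, 26 rose and 24 fell, or 13.7% together beside 13.8% of all genes tested. Herpud1 also held a second form of the ER stress element, ATTGG, any base, CCACG, which was found in 12 genes in all and in no other member. Of the 9 tested genes with this form, 1 rose, Herpud1 itself, and 2 fell, or 33.3% beside 13.8% of all genes tested. That form was added after the values of Herpud1 had been seen. In Herpud1 the elements lie 112 and 52 bases before the start, and in Chac1 the ATF4 element lies 193 bases before it, on the opposite strand in both genes.
Herpud1 (chr8:94386297-94386407, plus strand): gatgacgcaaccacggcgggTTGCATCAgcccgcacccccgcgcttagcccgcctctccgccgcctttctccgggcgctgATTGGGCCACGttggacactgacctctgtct
Chac1 (chr2:119351009-119351096, plus strand): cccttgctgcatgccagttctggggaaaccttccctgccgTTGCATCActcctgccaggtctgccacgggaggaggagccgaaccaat

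The XBP1 element TGACGTGG was in none of the 28 windows and in 0.714% of all genes with a window. Eif2ak3, the member with the largest rise, held none of these letters in its window, nor did Ddit3, Xbp1, Ern1 or Dnajb9. A match or its absence describes only these letters in this window.

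Other genes of the same pathways, from lists chosen by function, were read beside the members. The lists too were chosen with earlier results known, so their shares are descriptions without a test. Of 38 other ATF4 targets 5 rose and 7 fell, which is 31.6% beside 13.8% of all genes tested, and the median change was -0.13 against -0.02 over all genes tested. The 5 rises were 3 without knockout replicate 1 or 3 or wild type replicate 1 or 3, and the 7 falls were 3 without wild type replicate 1 and 4 without wild type replicate 3. Among the falls, Slc7a3 (3.22 in knockout, 3.62 in wild type arrays) and Slc1a5 (3.51 and 4.22) were dim. The knockout mean of Slc7a3 lay below the filter value of 3.32, so it was tested only through its higher wild type values. Slc7a11, the cystine importer, had the largest fall of this list, to 7.60 ± 0.25 in knockout against 8.87 ± 0.14 in wild type hepatocytes (SD, n = 4 each; log2 change -1.28, SE 0.13, limma adjusted p = 7.34e-05). The tryptophanyl-tRNA synthetase gene Wars fell by 0.69 (SE 0.11), while Gpt2, an alanine aminotransferase, rose by 0.83 (SE 0.11) and Vldlr, a lipoprotein receptor, by 0.79 (SE 0.13). Thus the wider set of ATF4 targets, like Chac1 and Trib3, held clear changes in both directions.

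Of 14 genes for the other eIF2 kinases, phosphatase partners and eIF2 itself with its exchange factor, 1 rose and 1 fell, a share of 14.3%, close to the 13.8% of all genes tested. Eif2b2 and Eif2b3 encode subunits of the exchange factor eIF2B. Eif2b2 rose by 0.38 (SE 0.10, limma adjusted p = 0.0275) and Eif2b3 fell by 0.42 (SE 0.10, limma adjusted p = 0.0176), and leaving out single arrays ended these calls in 4 and 3 of 8 cases, with adjusted p-values up to 0.0804 and 0.0563. The other eIF2 kinase genes Eif2ak1, Eif2ak2 and Eif2ak4 had differences of -0.09, -0.18 and -0.22 without a call. Set beside them, the change of Eif2ak3 was the 1 call among the 4 kinases, all of which were tested in the same fit.

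Of 17 other regulators of the XBP1 and ATF6 branches 3 rose and 1 fell, which is 23.5% beside 13.8% of all genes tested. Creb3l2, a membrane-bound factor that is cut in the Golgi as ATF6 is and drives secretory capacity, was higher at 8.67 ± 0.25 in knockout against 7.59 ± 0.23 in wild type hepatocytes (SD, n = 4 each; log2 change 1.08, SE 0.15, limma adjusted p = 6.32e-04). Its relatives Creb3 (0.35, SE 0.09) and Creb3l3, the liver factor CREBH (0.33, SE 0.10), rose as well, while Creb3l1 and Creb3l4 of the same family had differences of -0.27 (SE 0.14) and -0.24 (SE 0.14) without a call (limma adjusted p = 0.260 and 0.323). Nfya, a subunit of NF-Y, fell by 0.41 (SE 0.12). The calls of Creb3, Creb3l3 and Nfya ended in 6, 7 and 6 of the 8 fits that leave out 1 array, with adjusted p-values up to 0.0690, 0.139 and 0.0924.

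Of 33 other ER chaperones and folding enzymes 2 rose and 5 fell, which is 21.2% beside 13.8% of all genes tested. The median change was -0.06. The rises, named after their values were seen, were the prolyl isomerase gene Fkbp2 (0.46, SE 0.12, limma adjusted p = 0.0234) and Sil1, a nucleotide exchange factor of BiP (0.37, SE 0.11, limma adjusted p = 0.0420). They were 0 without knockout replicate 1 or wild type replicate 1 or 2 and 1 without any other array but knockout replicate 4, and the 5 falls were 3 without knockout replicate 1 or wild type replicate 3. Crtap, a partner of collagen prolyl hydroxylation, fell by 0.64 (SE 0.10), Uggt2, a glucosyltransferase of glycoprotein quality control, by 0.62 (SE 0.10), the prolyl isomerase Fkbp9 by 0.53 (SE 0.11) and the oxidoreductase Txndc5 by 0.32 (SE 0.08). The list means of endothelial markers and of stellate and fibroblast markers, which fell by 1.02 and dropped by 0.51, moved the same way, and their part in these falls was not tested. The Txndc5 call ended without 2 single arrays, at adjusted p-values up to 0.0594. Uggt2 was dim, at 3.90 in knockout and 4.52 in wild type arrays.

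Of 25 other genes of ER-associated degradation 3 rose and none fell, with a median change of 0.06. A positive difference was seen for 19 of the 25, beside 6954 of all 15380 genes tested. Edem2, a mannosidase that starts glycoprotein disposal, rose by 0.48 (SE 0.11, limma adjusted p = 0.0111), the ubiquitin-conjugating enzyme gene Ube2j1 by 0.30 (SE 0.08) and the derlin gene Derl2 by 0.34 (SE 0.10). Both of the latter calls ended in 6 of the 8 fits without 1 array, at adjusted p-values up to 0.0713 and 0.125, without knockout replicate 4 the rises were 5, and 12% of this list was called beside 13.8% of all genes tested. Of 50 genes of protein entry, glycosylation and ER to Golgi transport 1 rose and 2 fell, which is 6%. Kdelr3, a receptor that returns ER proteins from the Golgi, rose by 0.43 (SE 0.12), while the translocon genes Ssr2 and Sec61a2 fell by 0.33 (SE 0.09) and 0.37 (SE 0.10). These 3 calls ended in 7, 5 and 6 of the 8 fits without 1 array, at adjusted p-values up to 0.106, 0.0867 and 0.103.

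**Figure D4:**
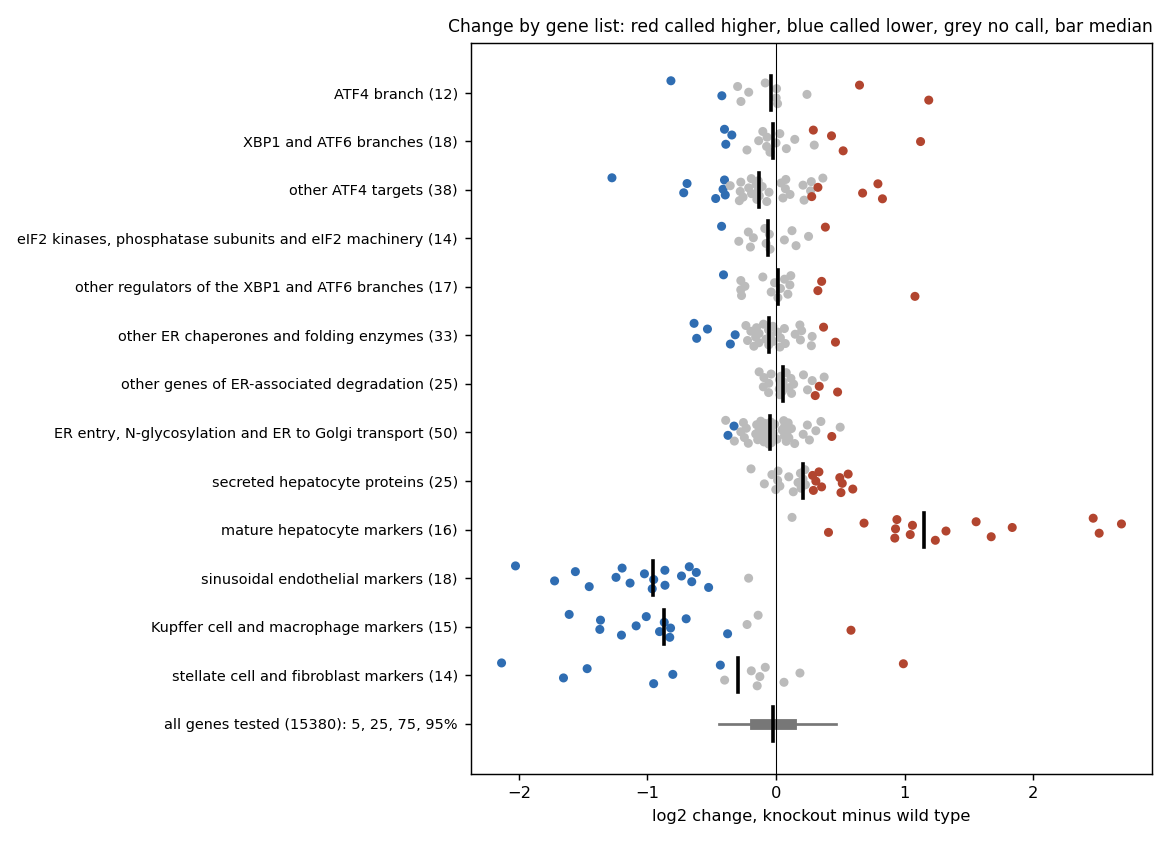
Log2 change, knockout minus wild type, of every tested gene in the members' branches, in 6 lists of related genes and in lists of liver cell genes; red points were called higher, blue lower and grey not called, black bars are medians, and the lowest line gives the 5th, 25th, 75th and 95th percentiles and the median of all 15380 genes tested. Medians of the members' branches (-0.04 and -0.02) lie at that of all genes (-0.02), while mature hepatocyte markers lie at 1.15 and endothelial markers at -0.96.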

How the data were processed

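Total RNA of 8 hepatocyte cultures was labelled with biotin and measured on 1 array each. The authors deposited log2 expression values, made with RMA through the oligo package per the submitters' processing notes (no versions given there). RMA is meant to make the arrays' distributions alike and compresses dim rows, so a change common to all genes could go unseen. Array medians of the deposited values still ran from 3.76 to 3.88. Over all genes, 1039 were called lower, beside 714 with median centring and 1299 with quantile normalization. The table has 41345 rows; 23521 name 1 gene symbol in the platform annotation, and the row of highest mean was kept for each of 22180 genes. Genes with a mean above the 40th percentile of rows entered limma's linear model and moderated two-sided test (version 3.58.1, under R 4.3.3; eBayes without a trend), with Benjamini-Hochberg adjustment over 15380 genes. Changes are knockout minus wild type. Arrays have no read depth, and 4 arrays per group set the precision. The fit was tested on simulated data.

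The members and gene lists were chosen with earlier results of these data known. All members are named, and from each list of related genes up to 4 called genes of smallest p. Promoter sequences are from RefSeq (GRCm38.p6) and were searched in Python 3.11.15. Alternatives were another filter, other rules for several rows, further normalization, other variance models, array weights, a replicate block, other thresholds and leaving out each array.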

Additional observations from a re-analysis of the deposited data

Results flagged for a closer look

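In 5 of 64 groups of 4 arrays, covering the 30 members and both branch means in each genotype, 1 array lay far from the other 3 by Dixon's ratio at the 95% level, where chance gives about 1 in 20. Herpud1 was at 9.39 in knockout replicate 2 and 9.22 to 9.23 in the other knockout arrays, all above its wild type range. Sdf2l1 was at 5.97 in knockout replicate 4 and 6.28 to 6.31 in the other knockout arrays. Pdia6 was at 9.42 in knockout replicate 1 and 9.49 to 9.51 in the other knockout arrays. In wild type replicate 2, Hyou1 was at 7.52 beside 7.92 to 7.98 in the other wild type arrays, and Canx was at 10.83 beside 11.03 to 11.06. None of these members except Herpud1 was called.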

How the results depend on the processing

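Of the 11 calls, those of Eif2ak3, Herpud1, Chac1, Dnajb9, Ddit3, Trib3 and Hspa5 held under all 19 alternative fits and that of Derl3 under all 18 in which it was tested, since the 60th percentile filter removes it. Ern1, Xbp1 and Dnajc3 lost theirs in 9, 10 and 6 fits, and no change of a called member reversed. The deviations of same-numbered arrays correlated at 0.06, 0.02, 0.26 and 0.21, so the numbers were not taken to pair samples; with a replicate block 5 members rose, 5 fell and Xbp1 lost its call, while 1133 of all genes fell.

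Members called higher numbered 6, and 3 with a required 1.5-fold change, 1 of them in the XBP1 and ATF6 branches. Members called lower numbered 5: 3 without a filter or with median centring, 8 with an intensity trend (robust or not) or a threshold of 0.10, 2 at 0.01, 1 at 1.5-fold, and 3 to 4 without 1 array (3 without knockout replicate 1 or wild type replicate 1 or 3). In the ATF4 branch the 2 falls became 4 with the 60th percentile filter, an intensity trend, array weights or a threshold of 0.10, and 1 at 0.01 or at 1.5-fold. In the XBP1 and ATF6 branches the 3 falls became 1 without a filter, with median centring or at 0.01, 0 at 1.5-fold, and 1 to 2 without 1 array (1 without those same arrays, 2 without any other). Over all genes 592 rose and 479 fell at 0.01, 505 and 390 at 1.5-fold, and 654 (without wild type replicate 1) to 992 fell without 1 array. No filter means more genes tested and leaving out an array means fewer samples; the cause of the other shifts was not tested. The median of all genes tested moved by less than 0.1 under every normalization. Of 1232 alternative values for single genes, lists of related genes and the median of all genes, 988 kept their side, 107 single-gene calls were lost, 18 were gained, 119 counts moved by over 1.5 times and no single-gene call reversed. For single genes only calls were compared. Differences of members without a call could cross zero, as for Edem1 (-0.06 to 0.38) and Sesn2 (-0.04 to 0.14).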
